A study of Mus musculus with 3 samples.

Results

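The 10 genes examined here encode proteins of the cytotoxic granule: the granzymes Gzma, Gzmb, Gzmc, Gzmk and Gzmm, the pore former Prf1, the granule membrane proteins Nkg7 and Lamp1, the proteoglycan Srgn and the cathepsin Ctsw. They were chosen by function, as a list of granzymes, perforin and granule proteins, but with earlier results of these data known. The list was drawn from the 19935 genes with a probe set of exactly 1 gene symbol on the array. All 10 members had 1 such probe set. RNA came from naive CD4+ T cells of wild-type C57BL/6 mice 8 weeks of age. The cells were cultured with IL-21, with IL-6 plus TGFb1, or with medium and vehicle. A single array was run per culture, 3 in all, with no replicates and no test, and every difference below compares 2 arrays. Culture time, cytokine doses, number of animals and any T cell receptor stimulus are not stated in the labels. No culture had IL-6 or TGFb1 alone, so their parts cannot be told apart.

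Cytotoxic lymphocytes kill by releasing granules onto a target cell. Perforin makes pores, and granzymes, which are serine proteases, enter through them and cleave proteins of the target. Inside the granule the granzymes are held on serglycin, the product of Srgn, and the granule membrane carries lysosomal proteins such as LAMP1. The granule system is best known in CD8+ T cells and natural killer cells, but CD4+ T cells can make its components after activation, and T-box and Runx transcription factors are known regulators of these genes in CD8+ T cells.

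The promoters of 4 members are shown so that their short motifs can be compared. They are Gzma, Gzmb and Gzmc, the granzyme members that were brightest with IL-21, and Nkg7, which was dimmer with IL-6 + TGFb1. The sequences are from RefSeq (build GRCm38.p6) and cover the 250 bases before the annotated start, written 5′ to 3′ on the gene's strand. Capitals mark matches, on either strand, to the letters TTCNNNGAA (the gamma-activated site bound by STAT factors), GGTGTGA (bound by T-box factors), TGTGGT (bound by Runx factors) or TGACGT (bound by CREB and ATF factors). The windows lie at chr13:113100982-113101231, minus strand, for Gzma, at chr14:56262335-56262584, minus strand, for Gzmb, at chr14:56234658-56234907, minus strand, for Gzmc, and at chr7:43436888-43437137, plus strand, for Nkg7.
Gzma: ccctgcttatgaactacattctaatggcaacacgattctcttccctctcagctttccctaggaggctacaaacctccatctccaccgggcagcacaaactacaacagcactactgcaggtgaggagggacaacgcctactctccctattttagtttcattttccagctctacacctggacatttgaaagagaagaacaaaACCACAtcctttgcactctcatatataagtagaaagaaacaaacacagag
Gzmb: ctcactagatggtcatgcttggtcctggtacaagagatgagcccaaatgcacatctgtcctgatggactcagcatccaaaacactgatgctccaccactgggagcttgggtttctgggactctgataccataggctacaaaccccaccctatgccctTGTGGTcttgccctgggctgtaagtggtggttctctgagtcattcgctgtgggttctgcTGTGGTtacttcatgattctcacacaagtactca
Gzmc: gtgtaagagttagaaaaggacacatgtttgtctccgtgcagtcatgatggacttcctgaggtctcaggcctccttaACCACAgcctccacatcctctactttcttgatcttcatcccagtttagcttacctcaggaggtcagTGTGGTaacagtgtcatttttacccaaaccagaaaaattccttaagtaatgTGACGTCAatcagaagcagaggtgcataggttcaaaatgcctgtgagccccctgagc
Nkg7: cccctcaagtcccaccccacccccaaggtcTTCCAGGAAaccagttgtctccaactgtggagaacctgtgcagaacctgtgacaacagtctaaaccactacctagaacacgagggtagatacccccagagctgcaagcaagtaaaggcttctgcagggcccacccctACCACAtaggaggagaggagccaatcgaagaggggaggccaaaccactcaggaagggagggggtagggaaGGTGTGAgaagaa

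Of these windows, only that of Nkg7 held the STAT and the T-box letters. The T-box match there lay 13 to 7 bases before the start. Gzmc held the full palindrome that 2 overlapping TGACGT matches on opposite strands make. The Gzmb and Gzmc windows each held 2 Runx matches. The promoter table listed 9 of the 10 members (all but Ctsw), with 11 windows between them. The Runx letters were found in 8 of these 9 genes, the exception being Gzmk, against 15.9% of the 27025 genes in the table. Counted by window, they were found in 8 of the 11, against 14.0% of all 32851 windows. The T-box letters were found in 3 members (Nkg7, Gzmm and Gzmk) against 3.84% of genes, the STAT letters in 2 (Nkg7 and Gzmm) against 8.13%, and the CREB and ATF letters in 3 (Gzmc, Prf1 and Srgn) against 7.29%. The motifs were picked after the windows had been read and base composition was not matched, so these shares describe the letters and were not tested.

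Each value is a linear probe set intensity. The medians were 182 on the IL-21 array, 188 on the IL-6 + TGFb1 array and 191 on the medium array. All 4 measured T cell markers, of which only Cd4 separates CD4+ from CD8+ T cells, were bright on every array. Cd4 (6765, 6077 and 6858 in that order of arrays), Cd3e (6434, 6069 and 6294) and Cd3d (1803, 1911 and 1710) were close to equal between cultures. Trat1, which encodes an adaptor of the T cell receptor complex, was not: it had 1560, 665 and 2803, a log2 difference from medium of -0.84 with IL-21 and -2.07 with IL-6 + TGFb1. All 6 measured natural killer cell markers, all 5 myeloid markers, all 3 measured B cell markers and all 3 mast cell and basophil markers were below an intensity of 187, the median of all values, on every array. The only measured gamma delta T cell marker, Sox13, was above it on every array (315, 328 and 317). The summed intensity of the natural killer markers was 587 with IL-21, 589 with IL-6 + TGFb1 and 568 with medium. Of the CD8 genes, Cd8a was below 187 on every array (145, 155 and 163), but Cd8b1 was above it at 731, 616 and 810. No marker was listed at 0, and the part of any CD8+ cells in the values below was not tested. Fewer cells that make a transcript and less of it per cell cannot be told apart in RNA of whole cultures.

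Granzymes A, B and C and perforin were brighter than medium in both treated cultures, more so with IL-21. Gzma with IL-21 stood furthest from medium. Cathepsin W was also brighter in both treated cultures, but most with IL-6 + TGFb1. Nkg7 was near its medium value with IL-21 and dimmer with IL-6 + TGFb1. Serglycin and LAMP1 were close to equal on the 3 arrays, and granzymes K and M were dim on all of them. Differences are given as log2(intensity + 1) of the first-named array minus the second, and a gene was compared if its highest intensity reached 187, which kept 11003 genes and 8 of the 10 members. Gzma and Gzmc reached that brightness in the treated cultures and not with medium.

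**Figure D1:**
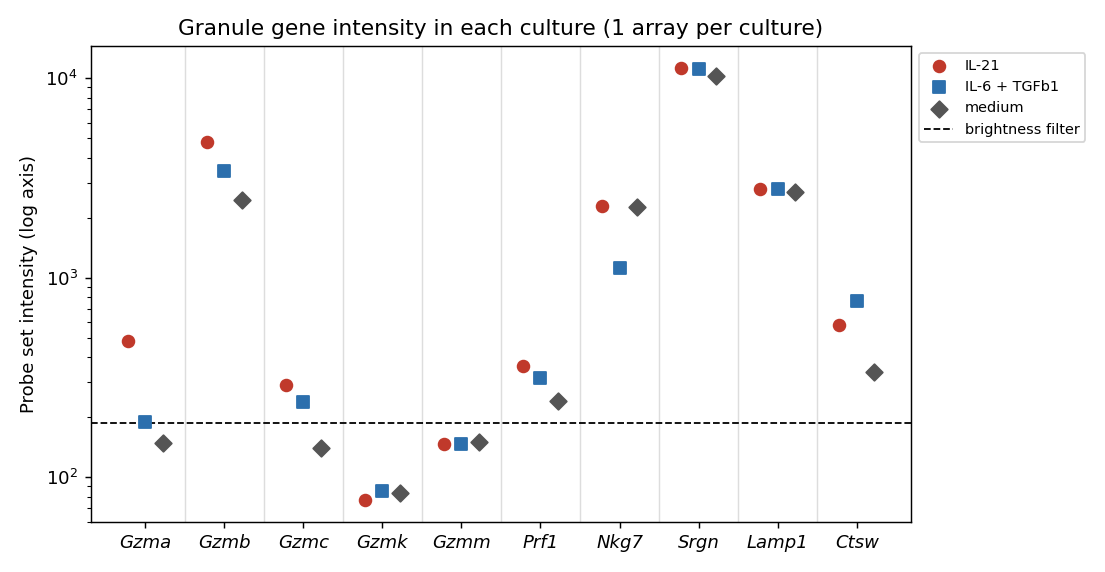
Intensity of each granule gene's probe set (log axis) in the 3 cultures, 1 array each: IL-21 (circles), IL-6 + TGFb1 (squares) and medium (diamonds), with the brightness filter of 187 as a dashed line. Gzma lies at 480 with IL-21 and at 149 with medium, and intensities of different probe sets are not comparable with each other.

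Gzma (probe set 10412211), which encodes a tryptase that cleaves after basic residues, had an intensity of 480 with IL-21, 189 with IL-6 + TGFb1 and 149 with medium. The IL-21 culture stood apart, with a log2 difference of 1.68 from medium, or 3.21-fold, against 0.34 for IL-6 + TGFb1. The medium value is below the brightness filter and at the level of Gzmm, so the size of this fold rests on a dim value. Among the 11003 compared genes the IL-21 difference ranked 12 from the highest. Between the treated cultures Gzma was 2.54-fold higher with IL-21 (1.34), where it also ranked 12 from the highest. The IL-6 + TGFb1 value of 189 is just above the filter of 187, so this fold rests on a dim value too.

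Gzmb (probe set 10420308) encodes the granzyme that cleaves after aspartate and activates caspases in the target cell. Its intensity was 4818 with IL-21, 3430 with IL-6 + TGFb1 and 2460 with medium. The log2 difference from medium was 0.97 with IL-21, just short of 2-fold, and 0.48 with IL-6 + TGFb1, and it was 0.49 between the treated cultures. The 3 cultures thus had the same order as for Gzma, but with a smaller step between IL-21 and IL-6 + TGFb1.

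Gzmc (probe set 10420302), a granzyme gene that lies next to Gzmb, had an intensity of 289 with IL-21, 238 with IL-6 + TGFb1 and 141 with medium. The log2 difference from medium was 1.03 (2.04-fold) with IL-21, just past 2-fold, and 0.75 with IL-6 + TGFb1. With log2(intensity + 16) the first of these was 0.96, short of 2-fold, and here too the medium value is dim. Both treated cultures were above medium, and the difference between them was 0.28.

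Prf1 (probe set 10363475), which encodes perforin, had an intensity of 363 with IL-21, 316 with IL-6 + TGFb1 and 242 with medium. It followed the order of Gzmb and Gzmc, with log2 differences from medium of 0.58 with IL-21 and 0.39 with IL-6 + TGFb1. The difference between the treated cultures was 0.20.

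Gzmk (probe set 10412218), a tryptase gene adjacent to Gzma, and Gzmm (probe set 10364460), which encodes a granzyme that cleaves after methionine and leucine, did not reach the brightness filter. Gzmk had an intensity of 76.9 with IL-21, 85.2 with IL-6 + TGFb1 and 83.5 with medium. Gzmm had an intensity of 147 in each treated culture and 151 with medium. Their log2 differences lay between -0.15 and 0.03, and at this brightness a difference could not be measured well.

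Ctsw (probe set 10465059) encodes cathepsin W, a cysteine protease of cytotoxic lymphocytes. Its intensity was 583 with IL-21, 769 with IL-6 + TGFb1 and 336 with medium. Here the order of the treated cultures was the opposite of that for Gzma, Gzmb and Gzmc. The log2 difference from medium was 0.79 with IL-21 and 1.19 (2.29-fold) with IL-6 + TGFb1, and IL-21 minus IL-6 + TGFb1 gave -0.40.

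Nkg7 (probe set 10552406), a membrane protein of cytotoxic granules that takes part in their release, had an intensity of 2291 with IL-21, 1126 with IL-6 + TGFb1 and 2259 with medium. It was the only member dimmer than medium by 2-fold in either treated culture, with a log2 difference of -1.004 for IL-6 + TGFb1 (2.01-fold lower) against 0.02 for IL-21. Between the treated cultures it was 2.03-fold higher with IL-21 (1.02). Both values lie at the 2-fold line, and they were -0.98 and 0.99 at their smallest under other scalings.

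Srgn (probe set 10369615) was bright on every array, at 11314 with IL-21, 11161 with IL-6 + TGFb1 and 10252 with medium, with log2 differences from medium of 0.14 and 0.12. Lamp1 (probe set 10570344) had exactly the same value, 2773, in both treated cultures, and 2700 with medium. Such exact ties were common in the deposited table, where 21.6% of probe sets were equal between the treated arrays, so a difference of 0 does not measure how alike the cultures were.

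With IL-21, 2 of the 8 compared members (Gzma and Gzmc) were at least 2-fold higher than medium and 0 at least 2-fold lower, where 0.482% of all compared genes were 2-fold higher and 0.109% 2-fold lower. With IL-6 + TGFb1, 1 member (Ctsw) was at least 2-fold higher and 1 (Nkg7) at least 2-fold lower, against 0.673% and 0.364% of compared genes. Between the treated cultures, 2 members (Gzma and Nkg7) were at least 2-fold higher with IL-21 and 0 lower, against 0.273% and 0.191%. Over all 10 members with no brightness filter the median log2 difference was 0.36 for IL-21 minus medium, 0.23 for IL-6 + TGFb1 minus medium and 0.11 between the treated cultures, where the median of all genes was 0 in each. Gzma and Gzmc passed the filter through the treated cultures, and the members were chosen with earlier results of these data known. The counts and medians therefore describe the members and carry no weight beyond that. The first 2 comparisons share the medium array, so members on the same side in both are not independent observations.

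No replicate gives the error of these differences. For scale, 474 genes had 2 bright probe sets each, and the 95th percentile of the gap between their log2 differences was 0.41 for IL-21 minus medium, 0.37 for IL-6 + TGFb1 minus medium and 0.35 between the treated cultures. Such a gap reflects how probe sets disagree on 1 pair of arrays; how cultures vary is not part of it. Gzma, Gzmb, Gzmc, Prf1 and Ctsw exceeded it with IL-21. With IL-6 + TGFb1 the members beyond it were Gzmb, Gzmc, Prf1, Nkg7 and Ctsw, of which Prf1 did so by little (0.39). Between the treated cultures Gzma, Gzmb, Nkg7 and Ctsw did. Over all compared genes the 95th percentile of the absolute difference was 0.46, 0.49 and 0.32 in the same order of comparisons. Gzmb and Prf1 with IL-6 + TGFb1 lay within that range. Gzma and Gzmc passed the brightness filter only through the treated cultures, so their places beyond the gap carry no added weight.

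**Figure D2:**
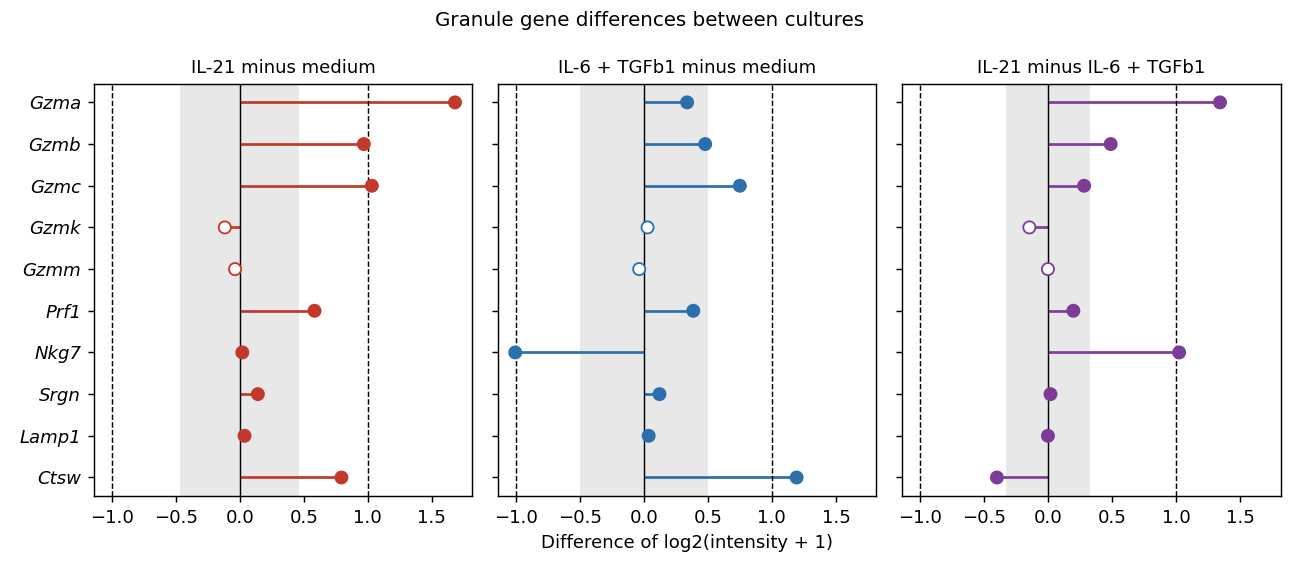
Difference of log2(intensity + 1) for each granule gene in the 3 comparisons. Dashed lines mark 2-fold, the grey band holds 95% of all compared genes (0.46, 0.49 and 0.32 to either side of 0) and open points are genes below the brightness filter. Gzma is furthest from 0 with IL-21, Ctsw and Nkg7 lie on opposite sides with IL-6 + TGFb1.

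Along the genome the granzymes with differences sat beside others with none measurable. Gzmb and Gzmc are neighbours on chromosome 14, at the end of a cluster that continues with Gzmf, Gzmn, Gzmg, Gzmd and Gzme. All 5 of these had intensities between 36.9 and 68.4 on every array, below the brightness filter, and their log2 differences from medium lay between -0.17 and 0.22. The granzymes of this cluster are similar in sequence, and binding of Gzmb transcripts to the Gzmc probes was not tested. The outer neighbours Ctsg, a neutrophil protease gene, and Atp12a, an ion pump gene, were dim as well (82.1 and 76.7 with IL-21). On chromosome 13 Gzma and Gzmk are adjacent, and of the pair only Gzma was past 2-fold: 480 with IL-21 against 149 with medium, where Gzmk had 76.9 and 83.5. The gene order was taken from the RefSeq table (GRCm38.p6).

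**Figure D3:**
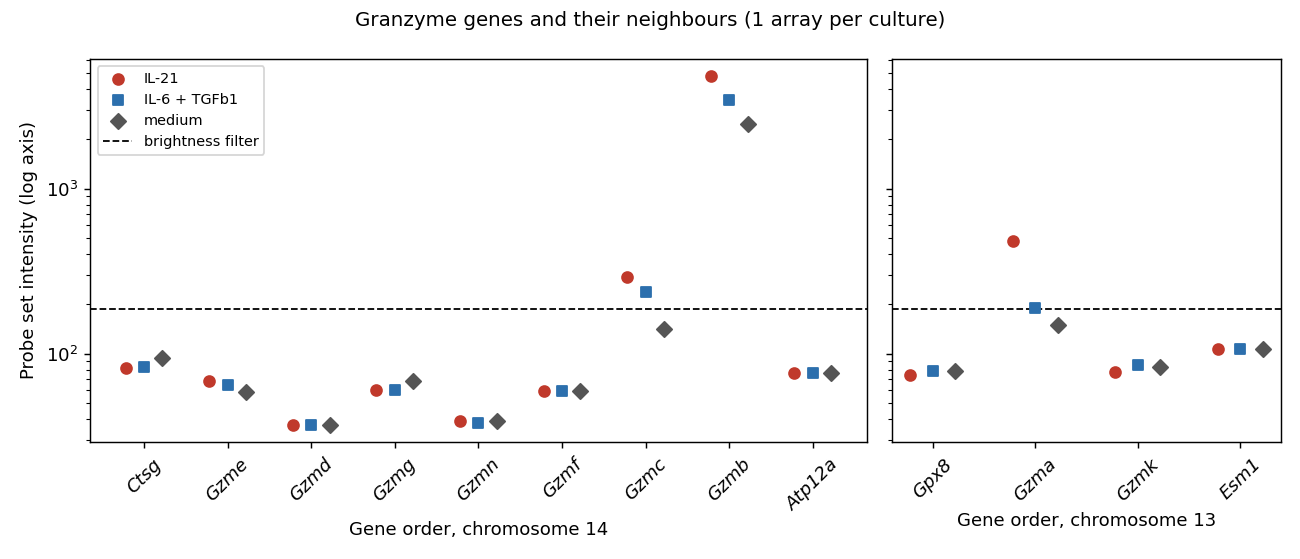
Intensity (log axis) of granzyme genes and their nearest neighbours, in their order along chromosome 14 (left) and chromosome 13 (right), spacing not to scale, with the brightness filter of 187 dashed. Gzmc, Gzmb and Gzma lie above the filter in both treated cultures, whereas Gzme, Gzmd, Gzmg, Gzmn, Gzmf and Gzmk lie below it in every culture.

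The genes that process, release and restrain granule proteins were read from lists chosen by function, also with earlier results of these data known. In these pathway lists, the genes past 2-fold were the transcription factor gene Eomes and genes of the inhibitor list. Of the 7 compared inhibitor genes, 1 was at least 2-fold higher with IL-21 and 0 lower, against 0.482% and 0.109% of all compared genes. With IL-6 + TGFb1, 2 were higher and 2 lower, against 0.673% and 0.364%. One of the higher pair, Serpinb1a, passed the brightness filter only through the IL-6 + TGFb1 culture, in which it was high. The median was 0.32 with IL-21 and 0.43 with IL-6 + TGFb1, against 0.04 and 0.02 for all compared genes. Serpinb6a, too, passed the filter only through the treated cultures (283 with IL-21 and 272 with IL-6 + TGFb1, against 164 with medium). Over all 8 measured inhibitor genes with no filter the median was 0.25 and 0.41, against 0 for all genes. Cst7, which encodes cystatin F, an inhibitor of the cathepsins that activate granzymes, had an intensity of 2885 with IL-21, 2505 with IL-6 + TGFb1 and 1145 with medium. It was thus higher in both treated cultures, by 2.52-fold (1.33) with IL-21 and by 2.19-fold (1.13) with IL-6 + TGFb1.

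Serpinb9, the intracellular inhibitor of granzyme B, had an intensity of 973 with IL-21, 455 with IL-6 + TGFb1 and 1061 with medium. Its log2 difference from medium was -0.12 with IL-21 and -1.22 with IL-6 + TGFb1. The related serpin gene Serpinb6b had 1994, 838 and 1937 in that order of cultures, with differences of 0.04 and -1.21. Like Nkg7, both serpins were thus near medium with IL-21 and at least 2-fold lower with IL-6 + TGFb1, while Gzmb itself was above medium in both. Between the treated cultures Serpinb6b (1.25) and Serpinb9 (1.10) were at least 2-fold higher with IL-21, and Serpinb1a (-1.08) at least 2-fold lower. In that comparison 0.273% of all compared genes were 2-fold higher and 0.191% 2-fold lower. Serpinb1a, an inhibitor of neutrophil serine proteases, went the other way, with an intensity of 149 with IL-21, 316 with IL-6 + TGFb1 and 95.3 with medium. Its difference from medium was 0.64 with IL-21 and 1.72 with IL-6 + TGFb1. The IL-21 and medium values are below the brightness filter, so the sizes of its differences rest on dim values. Serpinb6a was within 2-fold, at 0.79 and 0.73, and its medium value of 164 was below the brightness filter.

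In the lists of granule protein maturation (8 compared genes), granule exocytosis (19) and lysosome and granule membrane (8), no gene was past 2-fold in any comparison. Of all compared genes, 0.482% were 2-fold higher and 0.109% 2-fold lower with IL-21, and 0.673% and 0.364% with IL-6 + TGFb1. Between the treated cultures the shares were 0.273% and 0.191%, so the lack of such genes in short lists says little. The medians of these lists were 0.06, 0.09 and 0.15 with IL-21 and 0.06, 0.10 and 0.14 with IL-6 + TGFb1. The median of all compared genes was 0.04 and 0.02. The members of these lists furthest from medium were mostly higher, where 59.8% (IL-21) and 56.3% (IL-6 + TGFb1) of all compared genes were above medium. Stx11, a syntaxin needed for granule release, had 1628 with IL-21, 2138 with IL-6 + TGFb1 and 1204 with medium, differences of 0.43 and 0.83. Rab27a, the small GTPase that docks granules, gave 0.38 and 0.63. Stx7, a syntaxin of endosomes, gave 0.79 and 0.48, and Lamp2, the companion of LAMP1 in lysosomal membranes, gave 0.54 and 0.47. Lyst, a regulator of lysosome size, was above medium with IL-21 (0.44) and not with IL-6 + TGFb1 (-0.09). The cathepsin L gene Ctsl gave 0.25 and 0.60. Among the remaining genes with the largest differences of their lists, Vps33a, Ap3d1, Gnptab, Scarb2, Atp6v1a and Slc29a3, all lay between -0.16 and 0.25 in both comparisons with medium.

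The death ligand genes offer a second route of killing, through receptors on the target cell. Of 5 compared genes none was past 2-fold. No more than 0.673% of all compared genes were so in any comparison and direction, so this says little about the list. The median was -0.23 with IL-21 and -0.09 with IL-6 + TGFb1, against 0.04 and 0.02 for all compared genes. Tnfsf10, which encodes TRAIL, had 526 with IL-21, 285 with IL-6 + TGFb1 and 337 with medium, and its difference between the treated cultures was 0.88. Lta, which encodes lymphotoxin alpha, had 1734, 2717 and 2895 in that order, a difference of -0.74 with IL-21 and -0.09 with IL-6 + TGFb1. Tnfsf14 was above medium in both, at 0.62 and 0.65. Fasl, which encodes Fas ligand, was below the brightness filter on every array (150, 111 and 171).

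Among 19 compared transcription factor genes tied to cytotoxic T cells, Eomes was the only gene past 2-fold. Of all compared genes, 0.109% were 2-fold lower with IL-21 and 0.364% with IL-6 + TGFb1. Between the treated cultures, where Eomes was 2-fold higher with IL-21, the share was 0.273%. Eomes, a T-box factor known to activate Prf1, Gzmb and other granule genes in CD8+ T cells, had an intensity of 332 with IL-21, 131 with IL-6 + TGFb1 and 1180 with medium. It was therefore lower in both treated cultures (-1.83 and -3.17), and its IL-6 + TGFb1 value was below the brightness filter. In both, Gzmb, Gzmc and Prf1 were above medium, and a link between these genes and Eomes was not tested. The other T-box gene, Tbx21, which encodes T-bet, was within 2-fold at 0.06 and -0.47, and Runx3, another known activator of these genes, at 0.15 and 0.12. Id2, an inhibitor of E proteins that is used by effector T cells, was above medium by 0.79 and 0.98. Stat4 stood at 0.14 in the IL-21 culture and at -0.40 in the IL-6 + TGFb1 culture, a difference of 0.55 between the treated cultures. The median of the list was 0.18 with IL-21 and 0.17 with IL-6 + TGFb1, against 0.04 and 0.02 for all compared genes. The list mixes factors of different roles, so its median gives no direction for the granule genes. Tbx21 and Runx3 were outside the naming rule and were added after their values were seen.

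**Figure D4:**
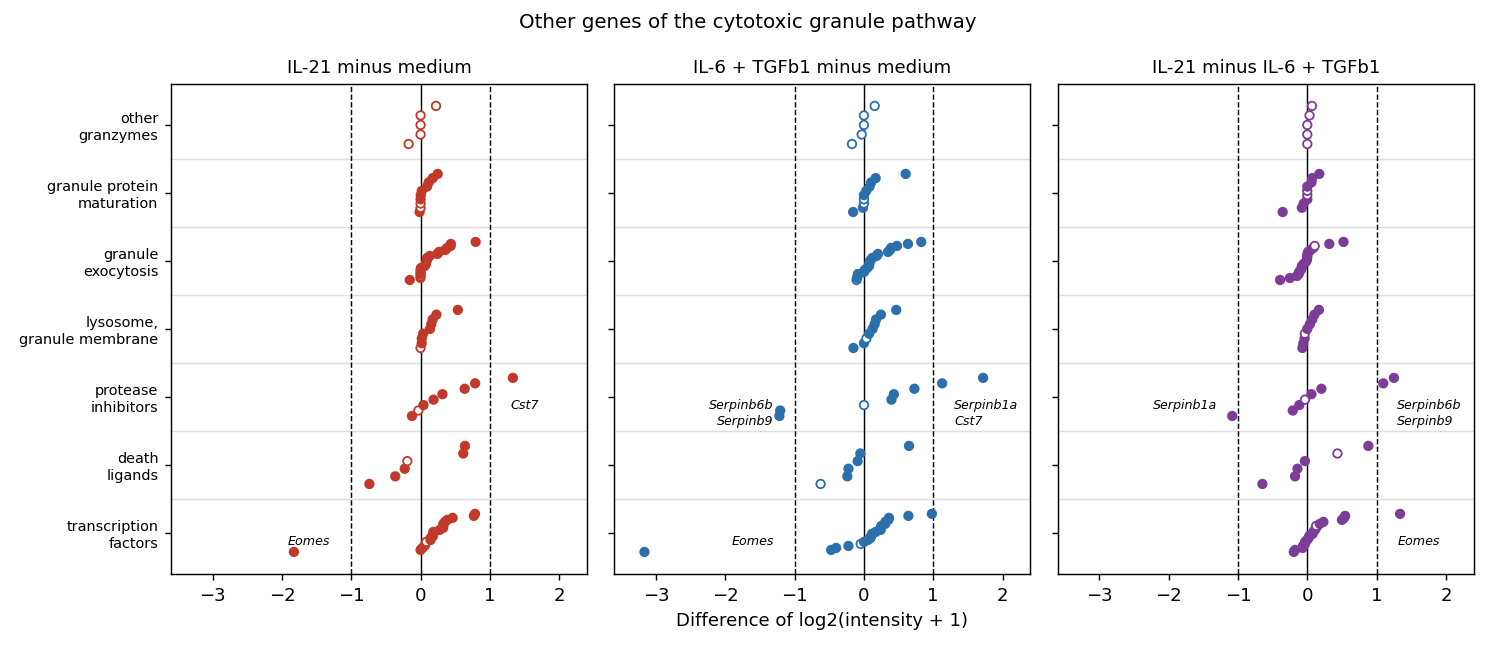
Difference of log2(intensity + 1) for the other genes of the cytotoxic pathway, by list, in the 3 comparisons, each point a gene and open points below the brightness filter. Genes past 2-fold (dashed lines) are named in order of their difference, and they are Cst7, Serpinb1a, Serpinb6b, Serpinb9 and Eomes.

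For each member past 2-fold, the 3 compared genes with the nearest pattern were found by the Euclidean distance over the 2 differences from medium, which rests on 3 arrays. Nearest to Gzma were Gpm6b (1.38 with IL-21 and 0.29 with IL-6 + TGFb1, distance 0.30), Crabp2 (distance 0.36) and Vaultrc5 (0.37), all with smaller IL-21 differences than Gzma. Nearest to Gzmc were Casp6 (1.01 and 0.70, distance 0.06), Fam102a (0.08) and B430306N03Rik (0.09). Nkg7 lay closest to Slamf6, a receptor of the SLAM family (0.07 and -1.02, distance 0.05), followed by Asap1 (0.13) and Gm10785 (0.14). Ctsw lay closest to Syt11 (0.77 and 1.14, distance 0.06), Crybg3 (0.09) and Txnip (0.09). Vaultrc5, B430306N03Rik and Crybg3 passed the brightness filter only through treated cultures. Their medium values were 113, 151 and 131, so their nearness rests on dim values, as it does for Gzma and Gzmc. Gzma had no gene as near as those of the other members.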

How the data were processed

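RNA was fragmented, biotin-labelled with an Affymetrix whole-transcript kit and hybridized by a service company, per the labels' protocols. The deposited values are intensities of 28815 probe sets on 3 arrays, a unit read from the values, which ran from 25.5 to 20652. The genome build was mm8, per the submitters' processing notes. The authors' summarization and normalization are not given in the sources cited here, and no further scaling was applied. With 1 array per group, the arrays' number limits the precision.

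Gene symbols came from the platform annotation, and the 21780 probe sets with 1 symbol were used, the brightest standing for its gene. All 10 members matched RefSeq by Entrez identifier. Differences of log2(intensity + 1) were computed with Python 3.11.15 and pandas 2.3.3 for genes whose highest intensity reached 187, and counted at 2-fold. The calculation was tested on simulated data, with changes placed only in genes above the brightness filter on every array. Genes with a dim medium value, such as Gzma and Gzmc, were thus not covered by it. The named genes were all members, genes of the 7 pathway lists past 2-fold, up to 2 genes per pathway list and comparison with the largest differences, and the 3 nearest patterns per member past 2-fold. Lists and members were chosen with earlier results of these data known. The 9 alternatives covered the pseudocount, dim values, scaling, probe set choice and brightness filter. Listed genes without a probe set of 1 symbol were not analysed here.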

Additional observations from a re-analysis of the deposited data

How the results depend on the processing

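The order of the cultures for Gzma, Gzmb, Gzmc, Prf1 and Ctsw was the same under the 7 alternatives that left the filter alone, with Gzma at 1.57 to 1.75 for IL-21 minus medium and Ctsw at 1.11 to 1.22 for IL-6 + TGFb1 minus medium. Of 210 differences recomputed, 204 kept their side of 2-fold, but many of these could not change. The mean or dimmest probe set, and raising values under the 20th percentile, left every member's value as reported. The differences that changed side lay close to 2-fold. Gzmc with IL-21 fell short with log2(intensity + 16) (0.96) and with arrays centred on the 75th percentile (0.92), Nkg7 with IL-6 + TGFb1 fell short with log2(intensity + 16) (-0.99) and with arrays centred on the median (-0.98), and Nkg7 between the treated cultures fell short with centring on the 75th percentile (0.99). Gzmb with IL-21 passed it with centring on the median (1.04). The count of members 2-fold higher with IL-21 than with medium, 2 as reported, was therefore 1 in both settings named for Gzmc, and the count 2-fold lower with IL-6 + TGFb1, 1 as reported, was 0 in both settings named for Nkg7. Between the treated cultures, 1 member in place of 2 was higher with centring on the 75th percentile. With the brightness filter at the 75th percentile, which leaves Gzma, Gzmc, Prf1 and Ctsw out, 0 members were 2-fold higher with IL-21, 0 with IL-6 + TGFb1, and 1 between the treated cultures. The median over the compared members was 0.69 with IL-21, 0.36 with IL-6 + TGFb1 and 0.24 between the treated cultures. It was 0.090 (IL-21) and 0.080 (IL-6 + TGFb1) against medium with that stricter filter, 0.36, 0.23 and 0.11 with no filter, and 0.58 with IL-21 under centring on the 75th percentile. That centring shifted the median of all compared genes by -0.11 in IL-21 minus medium, and relative to that median Gzma stood at 1.65 and Gzmc at 0.996. Each member had 1 probe set, so the choice of probe set changed no value. Of the list genes named, Cst7, Serpinb9, Serpinb6b, Serpinb1a and Eomes stayed past 2-fold wherever they were so reported in the 7 alternatives that left the filter alone, and Id2 reached 1.003 with IL-6 + TGFb1 under centring on the median. The signs of Gzmk, Gzmm, Lamp1, Srgn between the treated cultures and Nkg7 with IL-21 turned in some settings, all close to 0. No paired analysis was possible because each group has 1 array.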
